A study of Mus musculus with 8 samples.

Results

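The comparison described here set osteoinductive medium against growth medium in mouse bone marrow stromal cells that never left the ground. Its members were 4 of the 8 arrays of the series, chosen by their titles: 2 cultures in osteoinductive medium and 2 in growth medium, 1 of each kept in incubation units in ground hardware and 1 of each in laboratory culture dishes. The cells came from C57BL/6 mice aged 6 to 8 weeks with no allele or transgene named, and were adherent cells expanded from femur and tibia marrow and placed on Skelite, a calcium phosphate scaffold. The growth medium was Coon's modified Ham's F12 with 10% fetal calf serum and no added cytokines. The labels do not say what the osteoinductive medium held, how long cells stayed in it or how many mice were pooled. The ground units were worked by hand and the dishes had 24 wells, both at normal gravity. The 4 flown arrays, from the same media in automated hardware in microgravity or on a 1g centrifuge, enter only a closing comparison.

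Bone marrow stromal cells are the adherent, fibroblast-like cells of the marrow, and they can be led towards bone, fat or cartilage cells. Media that lead them towards bone usually hold ascorbate, which collagen folding needs, a phosphate source for mineral and often a glucocorticoid such as dexamethasone. A glucocorticoid binds an intracellular receptor that switches on a set of genes in most cell types and dampens inflammatory ones. Mineral-forming osteoblasts are known by bone alkaline phosphatase, by the transcription factor Sp7 and by bone matrix proteins.

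RNA from each culture was hybridised to 1 single-colour oligonucleotide array, and values are intensities of a gene's probe set. The median intensity of the 4 arrays lay between 180.9 and 183.6. Of 19938 genes, 13083 were bright enough to be tested, their mean lying above an intensity of 135.4 (the 40th percentile over probe sets). A gene is said below to have risen or fallen in osteoinductive medium only if its adjusted p in limma was under 0.05. Differences are log2 values of osteoinductive minus growth medium, averaged over both platforms, with the standard error (SE) of the fit. Each of the 4 arrays came from a different combination of medium and platform, and whether they stand for separate animals is not labelled. The error of the fit is the disagreement of the medium difference between platforms, which mixes any platform-dependent response with the spread of single arrays. The p-values therefore set the medium difference against its disagreement between platforms, and no spread between repeated cultures could be measured. The fit has 1 residual degree of freedom, so its SE rests mostly on the spread shared across genes.

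The medium changed many genes by small amounts and a few by large ones. Of the 13083 tested genes, 784 rose (5.99% of those tested) and 798 fell (6.1%). The share of each gene list below that rose or fell is to be read against these. The balance was uneven at large sizes. At least 2-fold differences were reached by 73 of the genes that rose and by 5 of those that fell, and at least 4-fold by 14 and 0. The median difference of all tested genes was -0.003. Of the genes that rose, 61 lay below the filter in growth medium and passed it through the osteoinductive arrays, as did 16 of the 73. Of those that fell, 13 lay below it in osteoinductive medium. All 1582 genes had the same sign in ground hardware and in dishes. The fit favours this, because its error is the disagreement between the platforms. The media did not overlap in 98.7% of the genes that passed and in 49.8% of all tested genes. Without the platform term, and with all 4 arrays, 432 genes rose and 404 fell. Leaving out an array also removed that term, so the next counts are read against these: 247 genes rose and 251 fell without the growth ground unit, 301 and 140 without the growth dish, 756 and 463 without the osteoinductive ground unit, and 297 and 342 without the osteoinductive dish. With the spread taken from all 8 arrays of the series they were 263 and 96.

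**Figure D1:**
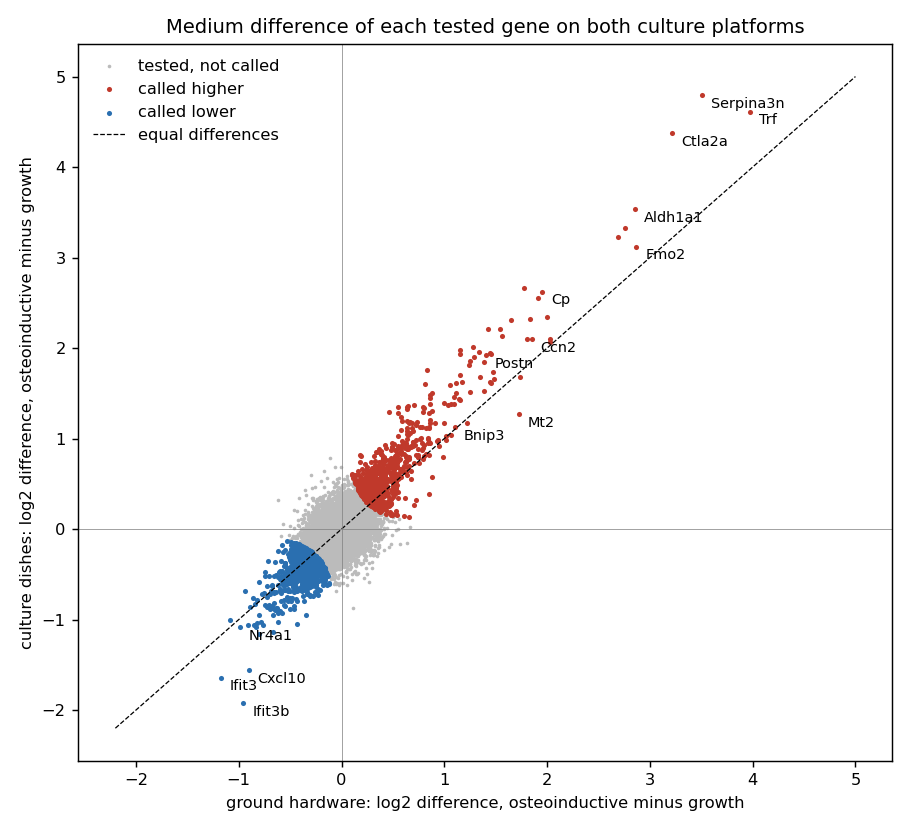
Each point is 1 of 13083 tested genes, with the log2 difference of osteoinductive minus growth medium in ground hardware on the x axis and in culture dishes on the y axis; red genes rose, blue genes fell, grey genes did not pass, and the dashed line marks equal differences. The large rises reach 4.80 in dishes (Serpina3n), the falls reach -1.92 (Ifit3b), and most red points lie above the line.

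The largest rise was that of Trf, which encodes transferrin, the iron carrier of plasma. Its intensity was 195 in the growth ground culture and 159 in the growth dish, against 3075 and 3881 in the osteoinductive ground and dish cultures. The media lay far apart on both platforms, and the rise was 19.6-fold (log2 difference 4.30, SE 0.12, adjusted p = 4.18e-10). In a bulk culture, more cells of one type and more RNA per cell cannot be told apart. Serpina3n, a secreted serine protease inhibitor of the acute phase, read 149 and 106 in growth medium and 1700 and 2950 in osteoinductive medium, a 17.8-fold rise (4.15, SE 0.20, adjusted p = 2.76e-08). Cp, the copper-carrying ferroxidase ceruloplasmin, read 523 and 516 in growth medium and 2020 and 3181 in osteoinductive medium, 4.88-fold higher. For both genes the lower osteoinductive array, that of the ground unit, still stood above both growth arrays.

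Of 20 tested genes for acute phase and metal carrier proteins, 8 rose (40%) and 1 fell (5%), with a median difference of 0.13. Besides those named, Itih2, a plasma protein that binds hyaluronan, rose by 1.88 and Lcn2, which binds bacterial iron carriers, by 1.37. Apod, a lipid-carrying apolipoprotein, rose by 0.84, the iron and copper reductase gene Steap2 by 0.32 and Hp, which binds free haemoglobin, by 0.30. Slc40a1, the iron exporter ferroportin, fell by 0.33. Serpina3n and Lcn2 lay below the filter in growth medium.

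Many genes that answer to glucocorticoids were higher in osteoinductive medium. Of 40 listed targets of the glucocorticoid receptor 10 were too dim to test. Of the 30 tested, 16 rose (53.3%, against 5.99% of all tested genes) and 1 fell (3.33%, against 6.1%). The median difference of the list was 0.37. Fkbp5, a chaperone partner that restrains the receptor, read 528 and 509 in growth medium and 1990 and 2996 in osteoinductive medium, a 4.71-fold rise (2.23, SE 0.12, adjusted p = 1.06e-07). Hsd11b1, the enzyme that regenerates active glucocorticoid inside cells, read 93.9 and 85.4 in growth medium and 328 and 367 in osteoinductive medium, 3.87-fold higher. It lay below the filter in growth medium, as Lcn2 did, so its fold rests on dim values there. Tsc22d3, the leucine zipper protein GILZ, read 244 and 236 against 580 and 858, 2.94-fold higher. In all 3 genes the dish held the highest array, and no growth array came near either osteoinductive one.

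The other large rises in that list were Tgm2, a protein crosslinking transglutaminase (1.69), the metal-binding metallothionein Mt2 (1.50), Lcn2 (1.37), Zbtb16, a zinc finger transcription factor (1.22) and the transcription factor gene Cebpd (1.20). Mt1, the other classical metallothionein, rose by 1.00 and Lox, a collagen crosslinking enzyme, by 0.98. Sesn1, a stress-induced sestrin, rose by 0.67, the clock gene Per1 by 0.46, the phosphatase gene Dusp1 by 0.42 and Ddit4, an inhibitor of growth signalling, by 0.32. Dusp1 was the exception in separation. Its growth dish, at 1738, stood level with the osteoinductive ground unit, at 1734. Nfkbia, the inhibitor that holds NF-kB in the cytoplasm, was the only member to fall, by 0.40. Among the 13 targets that did not pass were the kinase gene Sgk1, with a difference of 0.10, and Nr3c1, the receptor itself, with -0.12. The metallothioneins differed between platforms in growth medium, where Mt2 read 3161 in the ground unit and 4555 in the dish, against 10433 and 10993 in osteoinductive medium. Of 10 tested metallothionein and zinc transporter genes, 3 rose (30%) and 1 fell (10%), and the rises included Slc39a14, an importer of zinc and iron, by 0.59.

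Few markers of mineral-forming cells could be tested. Of 15 listed osteoblast markers, 5 were not analysed here and 4 lay below the filter, among them Sp7 and the bone sialoprotein gene Ibsp. Of the 6 that were tested, 0 rose and 0 fell, with differences between -0.01 and 0.19. With 5.99% of all tested genes higher and 6.1% lower, 0 of 6 is near the background. Alpl, the alkaline phosphatase of bone, read 192 and 158 in growth medium and 181 and 193 in osteoinductive medium, so the media overlapped (0.10, adjusted p = 0.578). Sp7 read 126 and 112 in growth medium and 126 and 107 in osteoinductive medium. Col1a1, the main collagen of bone, read 6384 and 6055 against 6485 and 6401, a difference of 0.05 (adjusted p = 0.77). Ifitm5, Pth1r (the parathyroid hormone receptor), Dmp1 and Sost also did not pass. A p above the threshold does not show that these levels were equal, and the smallest difference that passed in any gene was 0.27 in size.

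**Figure D2:**
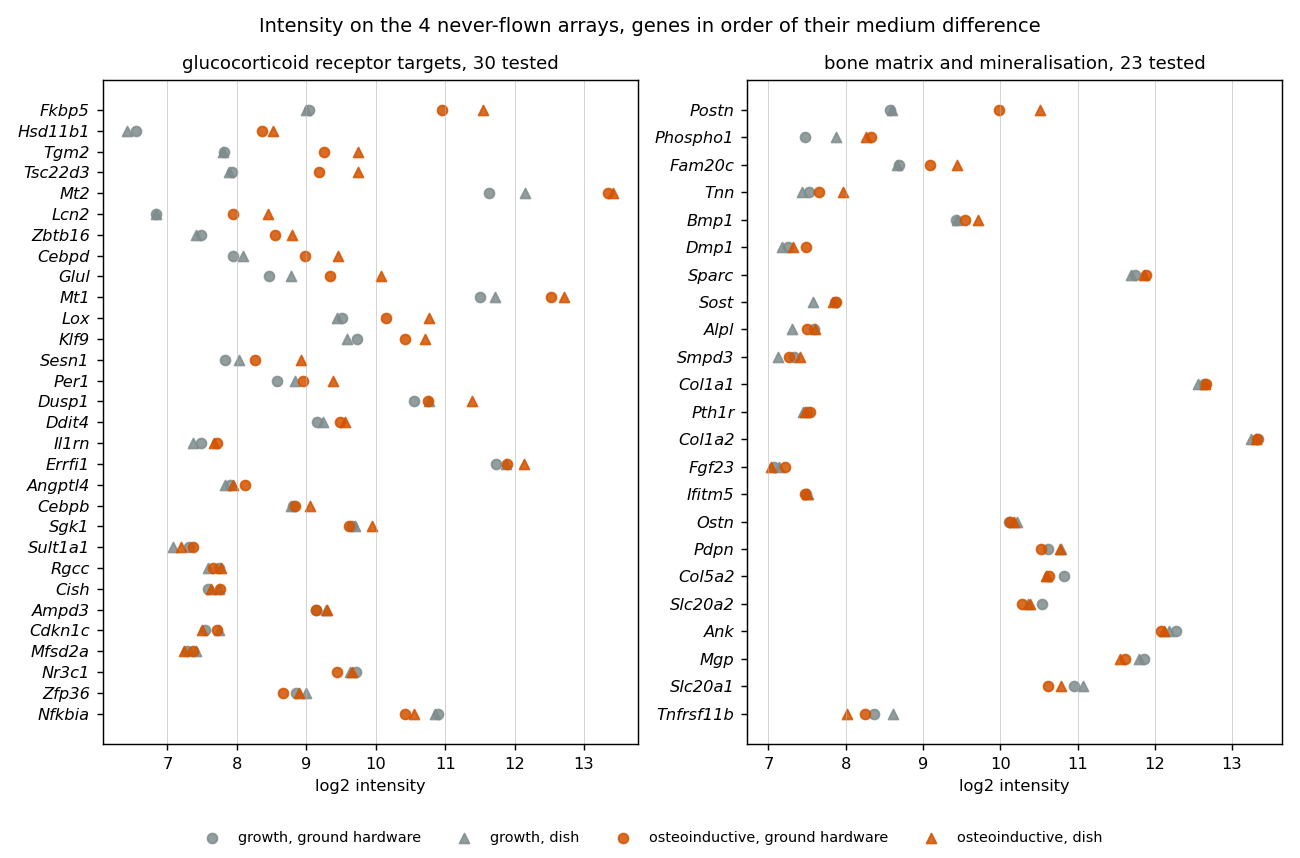
Log2 intensity on each of the 4 arrays (x axis), with growth medium in grey and osteoinductive medium in orange, circles for ground hardware and triangles for dishes; the left panel holds the 30 tested glucocorticoid receptor targets and the right panel the 23 tested bone matrix and mineralisation genes, ordered by difference. Grey and orange stand apart in 15 of the 16 targets that rose. In the bone panel they stand apart in all 4 genes that rose and both that fell. The same held for 98.7% of all genes that passed and 49.8% of all tested genes.

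In the wider list of bone matrix and mineralisation genes, 4 of 23 tested genes rose (17.4%) and 2 fell (8.7%), with a median difference of 0.03. Postn, the adhesive matrix protein periostin, read 381 and 386 in growth medium and 1010 and 1463 in osteoinductive medium, 3.17-fold higher (1.66, SE 0.11, adjusted p = 5.77e-07). Phospho1, the phosphatase that frees phosphate inside matrix vesicles, rose by 0.62, and Fam20c, the kinase of secreted matrix proteins, by 0.59. Tnn, the tenascin of bone surfaces, rose by 0.33 (adjusted p = 0.0471). The phosphate importer gene Slc20a1 fell (-0.31), as did Tnfrsf11b, the secreted decoy receptor osteoprotegerin (-0.36). Among 21 tested transcription factors of the osteoblast lineage, 5 rose (23.8%) and 4 fell (19%). The rises were Zbtb16, Id1 (0.46), the homeobox gene Dlx5 (0.41), Foxc1 (0.39) and Foxc2 (0.31). The falls were Snai2 (-0.57), Id2 (-0.48), Lef1 (-0.30) and Sox4 (-0.30).

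The genes of vitamin A metabolism and of flavin monooxygenases held several of the largest rises. Aldh1a1, which makes retinoic acid from retinal, read 147 and 149 in growth medium and 1061 and 1728 in osteoinductive medium, a 9.15-fold rise (3.19, SE 0.13, adjusted p = 5.38e-09). Its close relative Aldh1a7 read 56.4 and 66.9 against 382 and 670, 8.24-fold higher, and probes of the 2 related genes could share signal. Fmo2, an oxygenase of foreign compounds, read 105 and 139 in growth medium and 768 and 1211 in osteoinductive medium, 7.97-fold higher. In each of the 3 the media were apart on both platforms, by at least 2.76 on the log2 scale. Of 17 tested genes in the list, 7 rose (41.2%) and 0 fell, with a median of 0.16. The other rises were the alcohol dehydrogenase gene Adh1 (1.64), the retinal reductase gene Dhrs3 (0.79), Fmo1 (0.59) and Rarres2, which encodes the chemerin precursor (0.30). Adh1, Aldh1a7, Fmo2 and Rarres2 lay below the filter in growth medium.

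**Figure D3:**
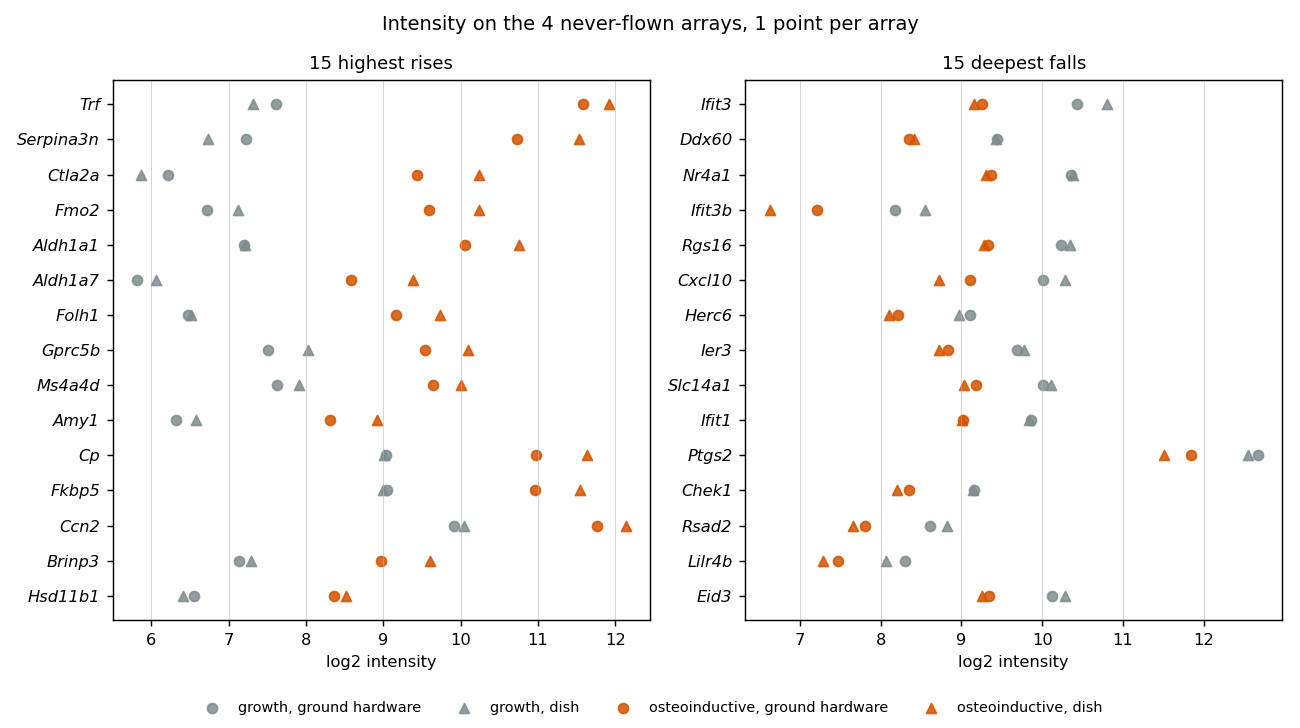
Log2 intensity of the 15 highest rises (left) and 15 deepest falls (right), 1 point per array, with growth medium in grey, osteoinductive medium in orange, circles for ground hardware and triangles for dishes. In each of the 30 genes both grey points lie on one side of both orange points, as in 98.7% of all genes that passed. Differences run from 3.87-fold to 19.6-fold on the left and from 1.75-fold to 2.71-fold on the right.

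The 15 highest rises were ranked by the smaller of the ground and dish differences, and 7 of them lay below the filter in growth medium. Ctla2a, a cysteine protease inhibitor, read 74.5 and 58.3 in growth medium and 693 and 1211 in osteoinductive medium, 13.9-fold higher (3.80, SE 0.18, adjusted p = 2.76e-08). Like Serpina3n, Fmo2, Aldh1a7, Folh1, Amy1 and Hsd11b1 it entered the test through the osteoinductive arrays alone, so its fold and p rest on dim growth values. Its near copy Ctla2b, which was not tested, differed by 1.19, and the array may not keep the copies apart. Folh1, a folate hydrolase of the cell surface, read 88.8 and 91.3 against 573 and 854, 7.77-fold higher. The remaining genes of the group were the orphan receptor gene Gprc5b (4.14-fold), Ms4a4d (4.17-fold), the amylase gene Amy1 (4.50-fold) and Brinp3 (4.22-fold).

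Of 20 tested matrix proteases and inhibitors, 10 rose (50%) and 2 fell (10%), with a median of 0.28. With no platform term 9 rose, and 6 when either growth array was also left out. With the spread from all 8 arrays 5 rose. Mmp13, the collagenase of bone and cartilage, read 113 and 97.8 in growth medium and 252 and 374 in osteoinductive medium, 2.92-fold higher. Adamts1 and Adamts5, which cut large proteoglycans, rose by 1.04 and 0.94, Ctsk, a collagen-cleaving cathepsin, by 0.88, and Mmp19 by 0.70. Adamts9 rose by 0.54, Mmp11 by 0.50 and the inhibitor gene Timp2 by 0.39. The falls were the gelatinase gene Mmp9 (-0.40) and Mmp16 (-0.29). Mmp13 and Ctsk lay below the filter in growth medium.

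Matricellular proteins, which sit in the matrix and signal to cells, moved both ways. Of 20 tested genes 8 rose (40%) and 4 fell (20%), with a median of 0.18. Among the rises, Ccn3 and Sparcl1 lay below the filter in growth medium. Ccn2, connective tissue growth factor, read 964 and 1051 in growth medium and 3476 and 4491 in osteoinductive medium, 3.93-fold higher (1.97, SE 0.09, adjusted p = 1.79e-08). Thbs2, a thrombospondin, rose by 1.19 and Tgfbi by 0.81. Other members of the same families fell, namely Ccn4 (-0.69), Ccn1 (-0.55), the tenascin gene Tnc (-0.55) and Thbs1 (-0.34). Among matricellular genes 6 rose with no platform term, and 5 when the growth ground unit was also left out.

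Of 24 tested collagens, 5 rose (20.8%) and 1 fell (4.17%), and the median of the list was 0.05. The basement membrane collagens Col4a1 and Col4a2 rose by 0.73 and 0.77, Col12a1, which coats collagen fibrils, by 0.78, Col3a1 by 0.49 and Col6a3 by 0.42. Col8a1 fell by 0.70, from 1487 and 1514 in growth medium to 1009 and 845 in osteoinductive medium. Among 23 genes of collagen folding and crosslinking, 5 rose (21.7%) and 1 fell (4.35%). Lox read 730 and 698 in growth medium and 1133 and 1745 in osteoinductive medium, and the hydroxylase genes Plod1 and P4ha2 rose by 0.79 and 0.63. P3h2 fell by 0.43. Of 8 tested small leucine-rich proteoglycans, 3 rose (37.5%), namely fibromodulin (Fmod, 0.57, below the filter in growth medium), Prelp (0.55) and decorin (Dcn, 0.43). Among 32 integrins and adhesion adaptors, 7 rose (21.9%) and 3 fell (9.38%). Itgbl1, an integrin-like secreted protein, read 401 and 443 in growth medium and 1018 and 1417 in osteoinductive medium, 2.85-fold higher, whereas Vcam1 fell by 0.45.

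Fat and cartilage markers gave single changes. Of 5 tested adipocyte markers, 1 rose (20%, against 5.99% of all tested genes). This was Fabp4, a fatty acid carrier, which read 97.3 and 98.3 in growth medium and 237 and 368 in osteoinductive medium, 3.02-fold higher, and which lay below the filter in growth medium. Pparg, Adipoq, Cd36 and Lpl were too dim to be tested on these arrays. In the wider list of 26 adipogenic regulators and lipid carriers, 6 rose (23.1%) and 0 fell, with a median of 0.09. Besides Fabp4 and Cebpd, these were the transcription factor gene Klf15 (0.77), the lipid droplet coat gene Plin2 (0.72), Scd1 (0.46) and Srebf1 (0.31). Of 7 tested chondrocyte markers, 1 rose (14.3%), the transcription factor gene Sox9, by 0.31, and Col2a1, the cartilage collagen, differed by 0.07 (adjusted p = 0.702).

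Among growth signals, the insulin-like growth factor (IGF) system leaned towards higher levels. Of 18 tested genes 8 rose (44.4%) and 1 fell (5.56%), with a median of 0.20. Igfbp5, an IGF binding protein abundant in bone, read 223 and 253 in growth medium and 608 and 784 in osteoinductive medium, 2.90-fold higher (1.54, SE 0.09, adjusted p = 1.21e-07). Pappa, a protease that frees IGF from its binding proteins, rose by 0.78 and the growth hormone receptor gene Ghr by 0.46. The fit without a platform term gave 4 IGF rises; with an array left out as well, 2 rose without the growth ground unit, 2 without the osteoinductive dish, 3 without the growth dish and 9 without the osteoinductive ground unit. Of 31 tested genes of bone morphogenetic protein and TGF-beta signalling, 6 rose (19.4%) and 4 fell (12.9%). The coreceptor gene Tgfbr3 rose by 1.04 and follistatin (Fst), which binds activins, by 0.92, while Bmp2 fell by 0.57 and the activin subunit gene Inhba fell by 0.46. Of 22 Wnt antagonists and targets, 2 rose (9.09%) and 4 fell (18.2%). The secreted antagonist Sfrp1, below the filter in growth medium, rose by 0.81 and another, Dkk2, fell by 0.78. Of 17 stromal signals that act on osteoclasts, 3 rose (17.6%) and 4 fell (23.5%). Osmr, the oncostatin M receptor, was higher by 0.92 while the cytokine genes Lif (-0.62) and Csf1 (-0.37) fell.

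Of 30 tested genes of hypoxia and glycolysis, 13 rose (43.3%), 0 fell and 17 did not pass, with a median of 0.22. Pfkp, a phosphofructokinase of glycolysis, read 366 and 368 in growth medium and 791 and 1046 in osteoinductive medium, 2.48-fold higher. Bnip3, a hypoxia-induced gene of mitochondrial clearance, read 715 in the growth ground unit, 1187 in the growth dish, 1537 in the osteoinductive ground unit and 2593 in the osteoinductive dish. For Bnip3 the dish exceeded the ground unit in both media, and within each platform the osteoinductive culture was higher. The oxygen sensor genes Egln3 and Egln1 rose by 0.84 and 0.72, and the glucose transporter genes Slc2a3 and Slc2a1 by 0.60 and 0.43. Ldha and Aldoa rose by 0.30 each. The count was 8 with all 4 arrays and no platform term, and 7 with the spread from all 8 arrays. Against that 8, it was 2 when the growth ground unit was also left out, 5 without the growth dish, 6 without the osteoinductive dish and 14 without the osteoinductive ground unit.

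The deepest falls were those of interferon-stimulated genes, which cells switch on in antiviral defence. Of 36 listed genes of this kind 8 were not analysed here and 1 was too dim. Of the 27 tested, 19 fell (70.4%, against 6.1% of all tested genes) and 0 rose, with a median of -0.46. Ifit3, which binds viral RNA complexes, read 1382 and 1783 in growth medium and 613 and 572 in osteoinductive medium, 2.65-fold lower (-1.41, SE 0.10, adjusted p = 1.98e-06). Its near-identical neighbour Ifit3b read 289 and 374 against 149 and 98.6, and the array may not keep the copies apart. Cxcl10, a chemokine for T cells, read 1033 and 1244 in growth medium and 552 and 422 in osteoinductive medium, 2.35-fold lower. Without the platform term 18 members fell, and 11 when the growth dish was also left out. In both Ifit3 and Cxcl10 the dish pair lay further apart than the ground pair.

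Further falls in the list were Rsad2, the antiviral enzyme viperin (-0.98), Ifit1 (-0.83), Ifit2 (-0.79), and the interferon-induced GTPase genes Iigp1 (-0.79), Gbp3 (-0.75) and Irgm1 (-0.66). Usp18, which dampens interferon signalling, fell by 0.65. Mx2, also among the falls, lay below the filter in osteoinductive medium. The regulators Irf7 (-0.55) and Irf9 (-0.30) fell, as did the viral RNA sensors Ddx58 (-0.49) and Ifih1 (-0.39). Ddx60 and Herc6, which are also known to answer to interferon, were not in the list and also fell (-1.05 and -0.87). Ddx60 read 692 and 688 in growth medium and 326 and 342 in osteoinductive medium. Of the 15 deepest falls, Ifit3, Ifit3b, Cxcl10, Ifit1, Rsad2, Ddx60 and Herc6 are genes of this kind.

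The promoters of 4 of these genes are shown because they hold the letters by which interferon-activated factors are known to bind. The windows run from 250 bases before to 50 after the gene's start in RefSeq, build GRCm38.p6, read 5′ to 3′ on the gene's strand. Capitals mark each place where 2 copies of GAAA stand with any 2 bases between them, or the same on the opposite strand, which reads as TTTC.
Ifit3, chr19:34583279-34583578, forward strand: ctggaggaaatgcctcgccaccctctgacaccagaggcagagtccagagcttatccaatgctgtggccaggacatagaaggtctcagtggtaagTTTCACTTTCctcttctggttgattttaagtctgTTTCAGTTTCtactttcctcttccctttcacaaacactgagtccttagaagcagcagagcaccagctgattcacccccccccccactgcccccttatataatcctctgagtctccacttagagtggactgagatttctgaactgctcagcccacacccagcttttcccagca
Ifit1, chr19:34640639-34640938, forward strand: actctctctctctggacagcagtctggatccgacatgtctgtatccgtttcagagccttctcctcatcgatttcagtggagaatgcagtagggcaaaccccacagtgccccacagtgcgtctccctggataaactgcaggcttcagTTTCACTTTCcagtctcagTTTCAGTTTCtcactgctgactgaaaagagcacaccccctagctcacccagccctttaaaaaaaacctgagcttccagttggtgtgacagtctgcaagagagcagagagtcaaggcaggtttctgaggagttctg
Rsad2, chr12:26456403-26456702, reverse strand: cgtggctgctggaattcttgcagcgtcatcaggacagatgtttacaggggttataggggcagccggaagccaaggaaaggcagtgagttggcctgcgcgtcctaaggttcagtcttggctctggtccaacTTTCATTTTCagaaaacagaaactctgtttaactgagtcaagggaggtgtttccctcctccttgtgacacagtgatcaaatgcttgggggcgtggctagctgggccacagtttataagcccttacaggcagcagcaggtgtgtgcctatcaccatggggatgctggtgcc
Ddx60, chr8:61927837-61928136, forward strand: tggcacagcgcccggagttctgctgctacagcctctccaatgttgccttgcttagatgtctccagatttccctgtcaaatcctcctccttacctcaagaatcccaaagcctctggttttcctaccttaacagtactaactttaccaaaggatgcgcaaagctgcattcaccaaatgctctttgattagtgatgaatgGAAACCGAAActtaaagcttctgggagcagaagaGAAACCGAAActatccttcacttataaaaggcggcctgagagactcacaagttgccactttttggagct

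In Ifit3 the first such place begins 156 bases before the gene's start and the second 122 bases before it, and in Ifit1 they begin 104 and 85 bases before it. Rsad2 held 1 place, 120 bases before the start, and Ddx60 held 2, at 53 and 19 bases before it. Promoters were found in the RefSeq table for 15 of the 19 interferon-stimulated genes that fell. Of their 18 promoters, 10 (55.6%) held the element, as did 2 of 7 promoters of the members that did not pass and 3.44% of all 32851 promoters. A match of letters is a description of the window, not a binding site. The full palindrome of the glucocorticoid receptor, AGAACA and TGTTCT with 3 bases between, was in only 3 of all 32851 promoters. It was in 0 of the 16 promoters found for 12 receptor targets that rose. Among targets that did not pass it was in 1 of 20, that of Sgk1. The 0 of 16 says only that these letters are not in these windows. AGAACA alone was in 6.25% of promoters of targets that rose, 20% for those that did not pass and 18.97% of all.

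**Figure D4:**
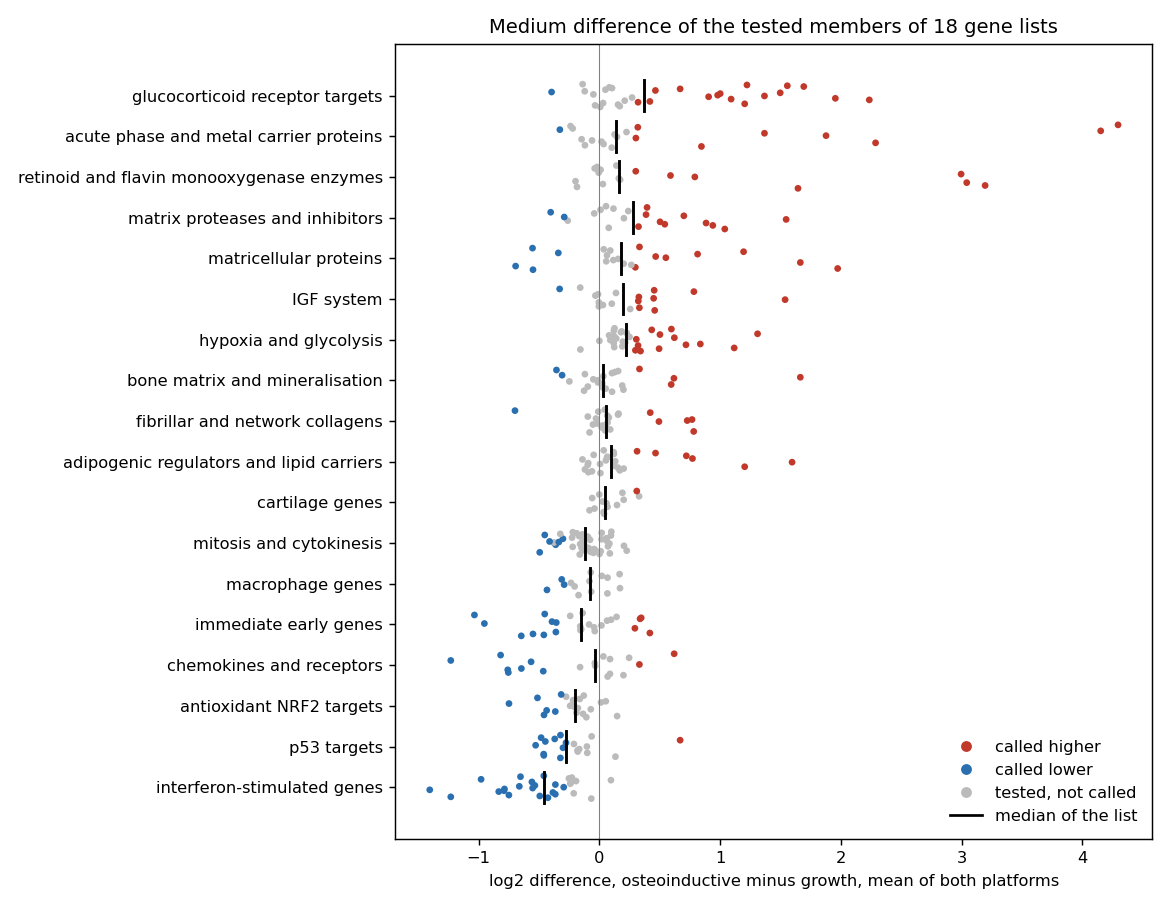
The x axis gives the log2 difference of osteoinductive minus growth medium for each tested member of 18 gene lists; red members rose, blue members fell, grey members did not pass, and a black bar marks the median of each list. Interferon-stimulated genes lie lowest (median -0.46) and glucocorticoid receptor targets highest (0.37), while the bone matrix median is 0.03.

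Of 18 tested chemokines and receptors, 7 fell (38.9%) and 2 rose (11.1%), with a median of -0.04 and positive differences in 8. Besides Cxcl10, the falls were Cxcl2 (-0.82), Ccl3 (-0.76), Ccl2 (-0.76), Ccl5 (-0.65), Cxcl1 (-0.57) and Ccl25 (-0.47). Cxcl5, which lay below the filter in growth medium, rose by 0.62 and Ccl9 by 0.33. The list of NF-kB and inflammatory cytokine genes went both ways, with 3 of 18 tested genes higher (16.7%), 4 lower (22.2%) and a median of -0.10. Besides Lcn2, the receptor gene Il4ra (0.72) and the cytokine gene Il33 (0.49) rose. The adhesion gene Vcam1 (-0.45), Cd14 (-0.44), Nfkbia and the cytokine gene Tnf (-0.28) fell. Lcn2 lay below the filter in growth medium and Cd14 in osteoinductive medium. Ptgs2, the inducible cyclooxygenase that makes prostaglandins, read 6527 and 5979 in growth medium and 3682 and 2904 in osteoinductive medium, 1.91-fold lower (-0.93, SE 0.09, adjusted p = 1.52e-05). Pla2g4a, the phospholipase that supplies it, fell by 0.59, while Ptges, the prostaglandin E synthase gene, rose by 0.45 and the prostaglandin F receptor gene Ptgfr, below the filter in growth medium, by 0.63.

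Of 25 immediate early genes, which answer quickly to signals, 9 fell (36%) and 4 rose (16%), with a median of -0.15. With no platform term 9 fell, and with an array left out as well 4 fell without the growth dish, 5 without the growth ground unit and 6 without the osteoinductive dish. Nr4a1, an orphan nuclear receptor, read 1307 and 1337 in growth medium and 659 and 631 in osteoinductive medium, 2.05-fold lower (-1.04, SE 0.08, adjusted p = 3.51e-06). Other falls were Ier3 (-0.95), Atf3 (-0.65), Nr4a2 (-0.45) and Jun (-0.39), whereas Klf4, Klf2 and Fos rose by 0.35, 0.34 and 0.29. The other genes of the 15 deepest falls were the G protein regulator gene Rgs16 (-0.98), the urea transporter gene Slc14a1 (-0.96), the checkpoint kinase gene Chek1 (-0.88), Eid3 (-0.91) and the leukocyte receptor gene Lilr4b (-0.80).

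Targets of the stress regulators p53 and NRF2 were lower by small amounts. Of 19 tested p53 targets, 10 fell (52.6%) and 1 rose (5.26%), with a median of -0.28. The falls included Plk2 (-0.53), the death receptor gene Tnfrsf10b (-0.48), Ccng1 (-0.46) and Mdm2 (-0.30), whose product degrades p53, while Sesn1 rose. With no platform term 6 p53 targets fell; with an array left out as well, 1 fell without the growth dish, 4 without the growth ground unit, 5 without the osteoinductive dish and 6 without the osteoinductive ground unit. Of 21 NRF2 targets, 6 fell (28.6%) and 0 rose, with a median of -0.21. With no platform term 4 fell, and with an array left out as well 2 fell without either growth array and 3 without the osteoinductive dish. Slc7a11, the cystine importer, read 3496 and 3819 in growth medium and 2348 and 2011 in osteoinductive medium, and Srxn1 (-0.51), Gclm (-0.46), Me1 (-0.44), Hmox1 (-0.37) and Txnrd1 (-0.32) also fell.

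Among genes of cell division, those of mitosis leaned lower. Of 43 tested genes of mitosis and cytokinesis, 7 fell (16.3%, against 6.1% of all tested genes) and 0 rose (against 5.99%). Their median was -0.12, 30 differences were negative, and the deepest fall was that of the checkpoint kinase gene Bub1 (-0.50). Of 33 genes of DNA replication, 1 rose and 1 fell (3.03% each way). The rise was Dut, which clears dUTP, by 0.86, and the fall was the helicase subunit gene Mcm6 (-0.31). Cytosolic ribosomal protein genes gave 0 of 18 in either direction, the respiratory chain 1 rise among 34, and the unfolded protein response 1 rise and 2 falls among 28. Hox genes, with 20 tested, and imprinted genes, with 11, gave 0 in either direction.

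Markers were read for the cells these cultures could hold. Of 14 stromal markers 13 were tested, with Col1a2 between 9706 and 10346 on all 4 arrays, and Lepr was too dim to test. Of the 13, 5 rose (38.5%) and 2 fell (15.4%), among them Pdgfra (0.59) and Prrx1 (-0.35). Of 18 macrophage markers 9 were tested, and 3 fell (33.3%), namely Cd14 (-0.44), Laptm5 (-0.31) and Csf1r (-0.29). Cd14 lay below the filter in osteoinductive medium. The 18 macrophage markers summed to intensities of 2943 and 2934 for growth medium and 2692 and 2629 for osteoinductive medium. The defining macrophage genes Adgre1, Mrc1 and Cd163 were at 113 or below on every array and were not tested. An intensity below the filter shows neither that a gene was expressed nor that it was absent. In a wider list of 30 macrophage genes, 14 were tested, and 3 fell and 0 rose. That list summed to 6254 and 6390 in growth medium and to 5920 and 6552 in osteoinductive medium, so its sums overlapped. The part of macrophages in the falls of interferon and chemokine genes was not tested. Endothelial, B cell, erythroid and lung epithelium markers gave 0 changes among 6, 4, 2 and 6 tested, and no neutrophil marker was bright enough to test. With 5.99% of all tested genes higher and 6.1% lower, 0 of so few is near the background. Among 9 skeletal muscle markers Chrna1, an acetylcholine receptor subunit, rose by 1.29 and Des by 0.27 (22.2%), and Myh8 fell by 0.29 (11.1%). Des lay below the filter in growth medium. Among 4 neuron markers Gap43 fell by 0.48.

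The platforms differed from each other by less than the media did. Across tested genes the standard deviation of the medium difference was 0.225 in ground hardware and 0.282 in dishes, whereas dish against ground hardware gave 0.143 for growth medium and 0.153 for osteoinductive medium. Across genes, which are not replicates, medium differences on the 2 platforms had r = 0.739, a description with no test. Principal component 1 of the tested genes held 73.1% of the variance. It placed the growth cultures at -13.6 (dish) and -13.4 (ground) and the osteoinductive ones at 9.55 (ground) and 17.4 (dish). Of the genes that rose, 626 (79.8%) had the larger difference in dishes, and of those that fell, 525 (65.8%). The median ratio of dish to ground difference was 1.28 over the genes that passed. For Trf the ground pair differed by 3.98 and the dish pair by 4.61, and for Serpina3n by 3.51 and 4.80. Mt2 went the other way, with 1.72 and 1.27. With 1 array for each medium and platform, an effect of the platform on the response and the spread of single arrays cannot be told apart.

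The flown cultures gave 4 arrays that did not enter the fit above. Titles were followed for their groups, although the gravity tag of the centrifuge arrays reads microgravity and 1 text of the osteoinductive centrifuge array places it in growth medium. Of the 784 genes that rose on the ground, 701 were also higher in osteoinductive medium in both flown pairs, a sign pattern held by 24.2% of all tested genes. Of the 798 that fell, 710 were lower in both flown pairs, against 34.1% of all tested genes. The opposite sign in both flown pairs was found for 19 and 7 genes. All 30 of the highest rises and deepest falls had the same sign in both flown pairs, with rises from 1.72 to 4.69 and falls from -0.49 to -3.37. All 19 interferon-stimulated genes that fell, and 15 of the 16 glucocorticoid receptor targets that rose, also moved the same way in both.

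**Figure D5:**
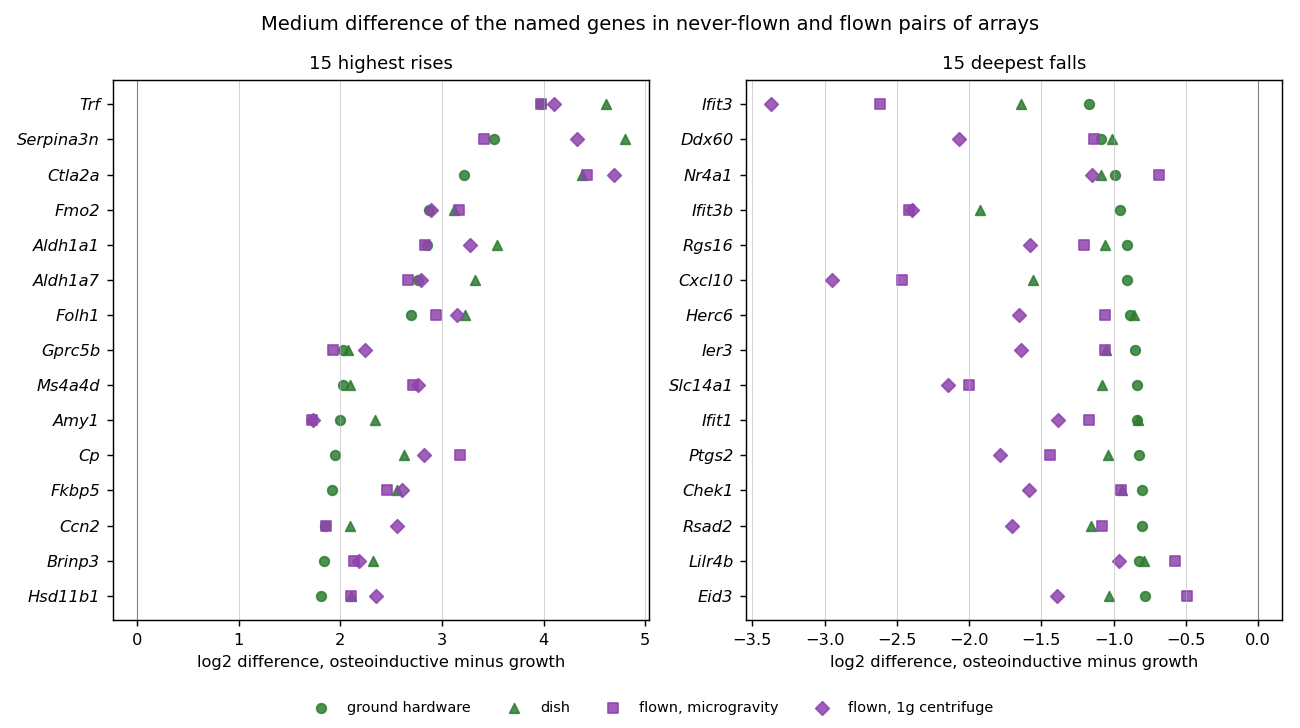
Log2 difference of osteoinductive minus growth medium (x axis) in 4 pairs of arrays for the 15 highest rises and 15 deepest falls of the never-flown cultures; green marks are never-flown pairs (circles ground hardware, triangles dishes) and purple marks flown pairs (squares microgravity, diamonds the 1g centrifuge). All points of a gene lie on the same side of 0. For most of the falls, among them Ifit3, Cxcl10, Slc14a1, Ifit3b and Ptgs2, both purple marks lie beyond both green ones. For Nr4a1, Rsad2, Lilr4b and Eid3 they do not.

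A difference in the response to medium between never-flown and flown cultures was tested over 13205 genes with all 8 arrays. By limma 0 genes passed (0%), with 635 at an unadjusted p under 0.05, and the smallest adjusted p was 0.0757. Genes at that value included Ifit3, Cxcl10 and Slc14a1, for which the never-flown fall was the smaller by 1.59 (SE 0.24), 1.48 (SE 0.23) and 1.12 (SE 0.18). The difference of Ifit3 was -1.17 in ground hardware and -1.64 in dishes, against -2.62 in microgravity and -3.37 on the centrifuge. The genes that rose had a median of 0.42 on the ground and 0.54 in flight, and those that fell -0.36 and -0.50. The standard deviation across tested genes was 0.237 for the never-flown mean and 0.332 for the flown mean. With all 8 arrays and no condition term, 0 genes passed in limma and the smallest adjusted p was 0.647. Leaving out an array also dropped that term, so the next counts are read against that fit. Each flown array left out also leaves 1 flown array in its medium. The count changed for some flown arrays left out, but not for the osteoinductive microgravity array. The count became 5 without the growth centrifuge array, 15 without the growth microgravity array, and 15 without the osteoinductive centrifuge array.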

How the data were processed

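As deposited, the array values are intensities on a linear scale. Both RMA and GCRMA appear in the submitters' processing notes, without versions or roles, and a genome build is not given. Each gene was represented by its brightest probe set among 21789 that name a single gene in the platform annotation; 1621 naming several genes and 12147 naming none were set aside. Of the single-gene identifiers 21698 matched RefSeq (GRCm38.p6), used for names and promoter windows.

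Log2 values were fitted with limma 3.58.1 (lmFit and eBayes, R 4.3.3) on medium and platform, so that their interaction served as error (1 residual and 11.9 prior degrees of freedom), with two-sided Benjamini-Hochberg adjustment over 13083 genes. The flown comparison used all 8 arrays, with condition, medium and medium by flight and 2 residual degrees of freedom. The scripts were checked on simulated arrays.

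The text names the 15 highest rises and 15 deepest falls, ranked by the smaller of the 2 platform differences, predicted genes left out, and at most 8 list members each way plus members needed for their role. The comparison, the 47 gene lists and the 14 marker lists were chosen with earlier results of these data known. Alternatives were no platform term, quantile normalization, other filters, 32 added before log2, a prior following the mean, the mean of probe sets, the spread of all 8 arrays and leaving out each array.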

Additional observations from a re-analysis of the deposited data

Results flagged for a closer look

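Of the 784 genes that rose on the ground, 19 had the opposite sign in both flown pairs, as had 7 of the 798 that fell. Those named in the gene lists were Fmod, the matrix proteoglycan fibromodulin (0.567 never-flown, -0.17 flown mean), Slc2a3, a glucose transporter (0.5955 and -0.09), Ccn3, a matricellular protein (0.2968 and -0.14), and Tll1, a procollagen protease (0.2898 and -0.16). The test of the difference between never-flown and flown cultures did not pass for any of the 4, with adjusted p = 0.386, 0.45, 0.932 and 0.903 in limma. Fmod and Ccn3 lay below the filter in never-flown growth medium.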

How the results depend on the processing

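All 30 of the highest rises and deepest falls kept their direction and passed in every setting in which they were tested, 23 of them being tested at the 60th percentile filter. Counts moved more. Without the platform term 432 genes rose and 404 fell, and hypoxia, insulin-like growth factor (IGF) and p53 lists gave 8, 4 and 6 in place of 13, 8 and 10. With no filter, when 19938 genes were tested, 378 rose and 206 fell, with 6 proteases, 8 hypoxia and 3 IGF genes higher, and 5 p53, 5 immediate early and 3 NRF2 genes lower. At the 60th percentile filter 3 retinoid and 5 matricellular genes rose. With the spread of all 8 arrays 263 rose and 96 fell, with 5 proteases, 4 matricellular, 7 hypoxia and 2 IGF genes higher and 11 interferon, 1 p53, 4 immediate early and 1 NRF2 genes lower. The cause of these shifts was not tested.

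When single arrays were left out, the lone array of a medium was assumed to vary like the other medium's, and no platform term could be fitted, so these values are read against those with no platform term. Between 247 and 756 genes then rose and between 140 and 463 fell. The lists ranged from 6 to 9 for proteases, 5 to 7 for matricellular, 2 to 14 for hypoxia, 2 to 9 for IGF, 11 to 18 for interferon, 1 to 6 for p53, 4 to 8 for immediate early and 2 to 7 for NRF2 genes. Glucocorticoid receptor targets gave 12 to 17 rises over all settings. In the comparison with flown cultures between 0 and 15 genes passed. The media were paired by the platform term, and the labels give no replicate numbers. Precision is limited by the number of arrays.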

Other observations

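Groups not described above also held changes in osteoinductive medium. Of 17 tested circadian clock genes, 4 rose (23.5%) and 1 fell (5.88%). Per2 rose by 0.50, the nuclear receptor gene Rora by 0.49, Per1 by 0.46 and Bhlhe41 by 0.32, while Ciart fell by 0.31. Of 27 lysosome and autophagy genes, 5 rose (18.5%) and 0 fell. The rises were the cholesterol exporter gene Npc1 (0.51), Wipi1 (0.46), the cathepsin gene Ctsb (0.45), Map1lc3b (0.39) and the proton pump subunit gene Atp6v0d1 (0.35). Of 15 complement genes, 3 rose (20%), C4b by 0.39, Cfb by 0.34 and C1rl by 0.33. Cfb lay below the filter in growth medium.

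Other lists moved both ways or not at all. Of all tested genes 5.99% rose and 6.1% fell. Of 32 ligands and receptors of fibroblast, platelet-derived and vascular endothelial growth factors, 4 rose (12.5%) and 3 fell (9.38%). Of 27 axon guidance genes, 4 rose (14.8%) and 5 fell (18.5%). Actin cytoskeleton genes gave 3 rises and 3 falls among 29 (10.3% each way). Sterol synthesis and uptake genes gave 1 rise (5.56%) and 2 falls (11.1%) among 18, and Hedgehog genes 0 among 10.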
